A study of Mus musculus with 32 samples.

Results

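Sphingosine 1-phosphate (S1P) is the lipid that draws T cells out of tissue, and 6 genes that read, make or block this signal were followed here in CD4 T cells of liver and spleen. They are the receptor genes S1pr1, S1pr2 and S1pr4, the sphingosine kinase genes Sphk1 and Sphk2, and Cd69, whose product blocks S1PR1. The genes were taken by name, 6 of 35968 genes in the summed tables, and all 6 were among the 17159 genes with enough counts to be tested. Cells came from male C57BL/6 mice of the Foxp3GFP genotype, in which green fluorescent protein reports Foxp3, the lineage factor of regulatory T cells. From liver and spleen alike, the gate TCRb+CD4+Foxp3+ gave regulatory T cells (Treg) and the gate TCRb+CD4+Foxp3- gave conventional CD4 cells (Tconv). All groups share this genotype, strain and sex. The mice were controls or had received carbon tetrachloride (CCl4), a hepatotoxin used to injure the liver. The labels give no dose, schedule or age. There are 32 libraries: 3 from controls and 5 from CCl4-treated mice for every 1 of the 4 populations. Whether replicates are separate animals or pools is not stated, so p-values measure only the spread between these samples, which may be technical.

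S1P is kept high in blood and lymph and low in tissue, and a lymphocyte that carries the receptor S1PR1 moves up this gradient to leave. CD69, which activated and tissue-resident T cells put on their surface, binds S1PR1 and takes it off the membrane, so that cells stay. S1PR2 couples to the G protein subunit encoded by Gna13 and restrains migration, S1PR4 is a receptor largely of blood cells, and SPHK1 and SPHK2 phosphorylate sphingosine to S1P. The transcription factor KLF2 switches on S1pr1 in T cells, and loss of this program is a known feature of T cells that settle in tissue.

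The labels fitted the markers of the sort. Foxp3 stood at 909 to 1176 CPM (counts scaled to a common library total, with TMM factors) in the 16 Treg libraries and at 0.681 to 3.43 CPM in the 16 Tconv libraries, and Cd8a did not exceed 1.36 CPM in any. The 2 CD8 markers Cd8a and Cd8b1 together summed to 8.37 to 28.8 CPM over the libraries, most of it Cd8b1. Estimated counts summed to 24513124 to 75292019 per library. A set of 4 libraries stood apart: spleen controls 2 and 3, in Treg and in Tconv alike, had 19.4 to 26.4 CPM of the immediate early gene Fos, against 711 to 1116 CPM in the other 12 spleen libraries. Results on the 6 genes that use them, and the counts over gene lists, are in many cases given without them too. This was done in many, but not all, places where leaving them out ended a call, turned a direction or moved the value by over 1.5 times. A value given for all libraries alone may still depend on them.

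Promoter sequence was at hand for 4 of the 6 genes in a RefSeq table of build GRCm38.p6: S1pr2, S1pr4, Sphk1 and Sphk2. The windows shown end at the base before the annotated start and run 5′ to 3′ on the gene's own strand. They were chosen because S1pr4 moved together with S1pr1, S1pr2 was lower in liver than in spleen Treg, and Sphk2 has an internal start. By estimate, transcripts from that start carried more of the Sphk2 difference between tissues than the upstream ones. Capitals mark the letters TGACG (a cAMP response half-site) or CACCC (the core bound by KLF proteins) on either strand. The windows lie at chr10:81500138-81500387, chr9:20976794-20977043 and chr7:45715208-45715456, all on the minus strand.
S1pr4: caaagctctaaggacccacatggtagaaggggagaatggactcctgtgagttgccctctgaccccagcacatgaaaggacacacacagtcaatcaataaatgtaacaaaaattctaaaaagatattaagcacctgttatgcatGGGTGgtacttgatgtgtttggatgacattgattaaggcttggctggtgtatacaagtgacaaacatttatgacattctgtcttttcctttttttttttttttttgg
S1pr2: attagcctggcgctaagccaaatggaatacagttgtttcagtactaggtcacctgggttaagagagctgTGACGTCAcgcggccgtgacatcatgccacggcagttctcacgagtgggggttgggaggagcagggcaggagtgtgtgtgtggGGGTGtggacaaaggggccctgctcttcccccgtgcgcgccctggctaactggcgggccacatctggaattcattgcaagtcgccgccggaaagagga
Sphk2 internal start: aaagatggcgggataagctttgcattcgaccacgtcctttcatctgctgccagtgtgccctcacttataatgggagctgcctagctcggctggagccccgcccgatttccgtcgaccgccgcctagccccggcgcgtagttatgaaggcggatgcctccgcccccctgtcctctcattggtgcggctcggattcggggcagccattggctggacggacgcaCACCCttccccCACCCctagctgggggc

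The S1pr4 window had 38.8% G and C and 0 CpG dinucleotides, against a median of 52.4% G and C over all promoters of the table, and held 1 CACCC match. That of S1pr2 had 59.2% G and C and 14 CpG, with 1 CACCC match and 2 TGACG matches that overlap each other on opposite strands, 181 to 174 bases before the start. The internal Sphk2 window had 63.9% G and C, 20 CpG and 2 CACCC matches. It was cut to 249 bases, since an exon of the opposite-strand gene Rpl18 begins at the next base, 45715457. TGACG occurs in 17.85% and CACCC in 52.14% of the 32536 promoter windows of 250 bases, so a CACCC match is common. None of the 3 held the AP-1 motif TGANTCA (6.73% of windows), the NF-kB motif (7.28%) or the serum response element (1.48%). These matches describe letters in a window and say nothing of a factor's binding.

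S1pr1 lies on the minus strand at chr3:115710433-115715072 (GRCm38) and has 1 transcript in the files. In the liver it fell in Treg of CCl4-treated mice and not measurably in Tconv of the same organ. The 3 liver Treg controls had 862, 888 and 879 CPM and the 5 liver Treg libraries after CCl4 373, 433, 370, 295 and 284 CPM. Every treated library was thus below the lowest control by a wide margin, and the means were 876 ± 13.1 (SD, n = 3) and 351 ± 61.8 (SD, n = 5). The log2 fold change was -1.32 (SE 0.12, adjusted p = 2.308e-09 by edgeR's quasi-likelihood test with Benjamini-Hochberg adjustment over all genes tested). In bulk samples, fewer cells that carry a transcript and less of it per cell cannot be told apart.

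In liver Tconv the controls had 1832, 1576 and 1789 CPM of S1pr1 and the treated libraries 1268, 1767, 1969, 1638 and 1489 CPM. These groups overlap, and the log2 difference of -0.09 (SE 0.12) had an adjusted p of 0.8052. The test of the difference between the effects gave -1.23 (SE 0.17, adjusted p = 3.009e-05, edgeR), with Treg lower.

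In spleen Treg, S1pr1 was at 446, 587 and 596 CPM in controls and at 396, 407, 416, 348 and 393 CPM after CCl4. The groups do not overlap, but control 1 lies close to the treated libraries while controls 2 and 3, the libraries low in Fos, lie above. The log2 fold change was -0.47 (SE 0.12, adjusted p = 0.0412, edgeR), and it was -0.18 with an adjusted p of 0.8655 without controls 2 and 3. Leaving out control 2 alone (adjusted p = 0.2955), control 3 alone (0.2567) or any 1 of the 5 treated libraries (0.0559 to 0.1059) also ended the call, while the log2 fold change stayed between -0.59 and -0.40 when any single library was left out. In spleen Tconv the controls had 918, 1043 and 977 CPM and the treated libraries 800, 854, 832, 880 and 829 CPM, again without overlap, with a log2 difference of -0.22 (SE 0.12) that missed the threshold (adjusted p = 0.3888). This difference was -0.13 when spleen controls 2 and 3 were left out. The fall in liver Treg exceeded that in spleen Treg by -0.85 on the log2 scale (SE 0.17, adjusted p = 0.00218, edgeR), and by -1.14 without spleen controls 2 and 3 (adjusted p = 0.00674). The 10 myeloid markers summed to 20.3 to 27.9 CPM in spleen Treg controls and 59.9 to 120 CPM after CCl4, and their part in the S1pr1 value was not tested.

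S1pr4 encodes a receptor on lymphocytes and other blood cells, lies on the minus strand at chr10:81497747-81500132 and has 1 transcript in the files. It fell beside S1pr1 in liver Treg. Controls had 107, 120 and 117 CPM and treated libraries 70.4, 73.4, 59.8, 47.6 and 60.5 CPM, with no overlap. The means were 115 ± 6.92 (SD, n = 3) and 62.3 ± 10.2 (SD, n = 5), a log2 fold change of -0.88 (SE 0.11, adjusted p = 5.217e-07, edgeR). Liver Tconv had 126, 134 and 144 CPM in controls and 113, 140, 133, 109 and 106 CPM after CCl4, with overlap and a log2 difference of -0.16 (adjusted p = 0.5415). The effect in liver Treg was lower than that in liver Tconv by -0.72 (SE 0.15, adjusted p = 0.00421) and lower than that in spleen Treg by -0.67 (SE 0.15, adjusted p = 0.00724), the latter being -0.84 without spleen controls 2 and 3 (adjusted p = 0.0267).

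Spleen Treg had 88.9, 108 and 103 CPM of S1pr4 in controls and 85.8, 84.7, 90.4, 83.9 and 84.7 CPM after CCl4, a log2 difference of -0.22 (adjusted p = 0.371). In spleen Tconv the controls (129, 139 and 160 CPM) and the treated libraries (107, 118, 115, 129 and 113 CPM) came within 1 CPM of each other at 129 CPM without crossing, and the difference of -0.30 missed the threshold (adjusted p = 0.1677). The same alternatives gave -0.3027 to -0.1567 in spleen Tconv. Neither spleen population had a called change in S1pr4.

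S1pr2, the receptor that restrains migration, lies on the minus strand at chr9:20962361-20976781 and was scarce beside the other receptors. Spleen Treg held the most, with 33.8, 35.1 and 28.1 CPM in controls and 38.3, 41.5, 38.8, 39.8 and 37.3 CPM after CCl4. The treated libraries all lay above the controls, but the log2 difference of 0.27 (SE 0.18) missed the threshold (adjusted p = 0.5391). Liver Treg had 22.2, 23.7 and 23.8 CPM in controls and 22.2, 23.9, 18.8, 15.9 and 20.9 CPM after CCl4, with overlap (log2 difference -0.19, adjusted p = 0.5606). In Tconv the libraries ran from 15.3 to 28.9 CPM in liver and from 20.2 to 34.4 CPM in spleen, and neither CCl4 comparison was called.

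Over the 6 genes, 2 were called in liver Treg, both lower, where 14.9% of the 17159 genes tested were called in either direction and 7.34% were called lower. The corresponding count was 0 in liver Tconv, where 0.326% of genes were called, 1 in spleen Treg (1.18%, 0.42% lower) and 0 in spleen Tconv (1.07%). Library values of the 2 groups did not overlap for 2 of the 6 in liver Treg (19.1% of all genes), 1 in liver Tconv (6.65%), 2 in spleen Treg (10.9%) and 2 in spleen Tconv (8.82%). The median log2 difference of the 6 was -0.25 in liver Treg, against a median near 0 over all genes tested. In the tests of a difference between CCl4 effects, 2 of the 6 were called for liver Treg against liver Tconv (3.63% of all genes) and the same 2, S1pr1 and S1pr4, for liver Treg against spleen Treg (5.48% of all genes). These 2 differences share the liver Treg libraries. Both genes were lower in the liver Treg term each time, where 1.77% and 3.46% of all genes were called lower. None of the 6 was called for liver Tconv against spleen Tconv (0.0874% of genes) or for spleen Treg against spleen Tconv, where edgeR called 0 genes in all and DESeq2 15.

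**Figure D1:**
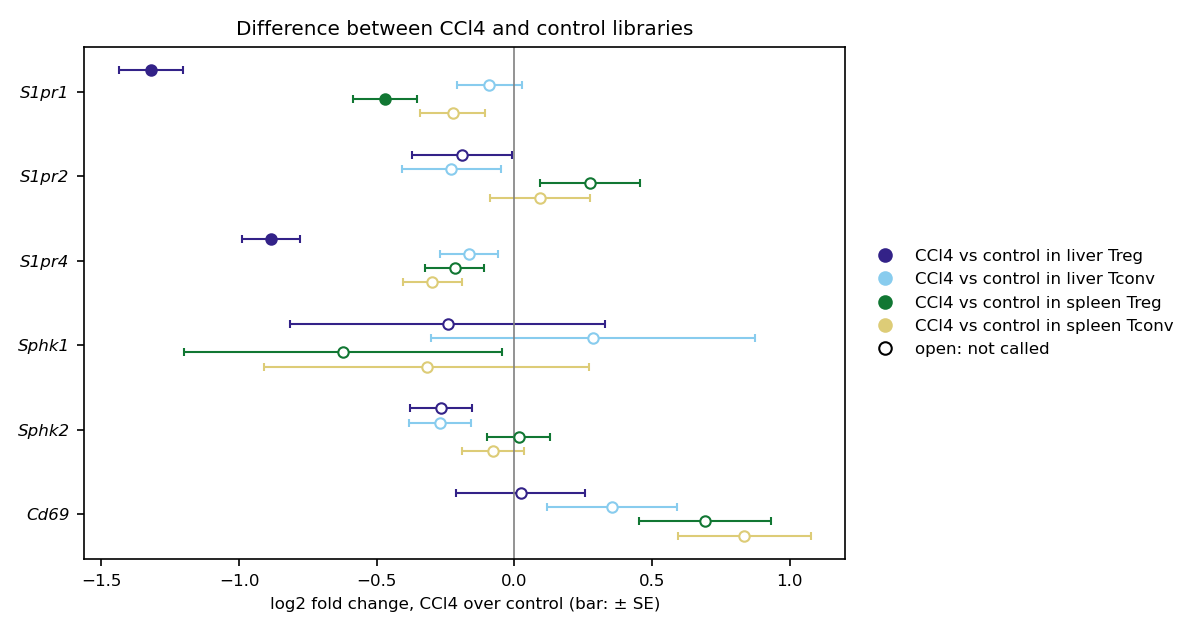
Log2 fold change (x axis) of each of the 6 genes after CCl4 against control in liver Treg, liver Tconv, spleen Treg and spleen Tconv, with bars of 1 standard error; filled points passed an adjusted p of 0.05 and open points did not. S1pr1 and S1pr4 lie at -1.32 and -0.88 in liver Treg, and among the other values only S1pr1 in spleen Treg (-0.47) is filled.

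Other genes moved with S1pr1 and S1pr4 in liver Treg. Klf2, which drives S1pr1 transcription, fell from 732 ± 57.7 (SD, n = 3) to 413 ± 36.7 CPM (SD, n = 5), a log2 fold change of -0.83 (adjusted p = 1.59e-07, edgeR), while liver Tconv had 1378 ± 95.0 and 1553 ± 181 CPM. Ccr7, the receptor for lymph node chemokines, fell from 1192 ± 156 to 404 ± 80.2 CPM (log2 fold change -1.56, adjusted p = 1.222e-07). Endothelial cells also carry S1pr1, and the 10 endothelial markers summed to 202 to 222 CPM in liver Treg controls and 105 to 125 CPM after CCl4. Of these, Pecam1 went from 199 ± 10.4 to 106 ± 11.1 CPM, Cdh5 averaged 0.808 and 0.195 CPM and Kdr 1.61 and 1.67 CPM. The sinusoidal markers Clec4g and Stab2 averaged 4.396 and 2.54 CPM in controls and 0.230 and 0.0296 CPM after CCl4. The hepatocyte markers summed to 31.4 to 60.03 CPM in controls. After CCl4 they summed to 3.94, 14.3, 200, 4.68 and 6.68 CPM, so that replicate 3 alone lay above the controls. The part of endothelial and hepatocyte RNA in these results was not tested.

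**Figure D2:**
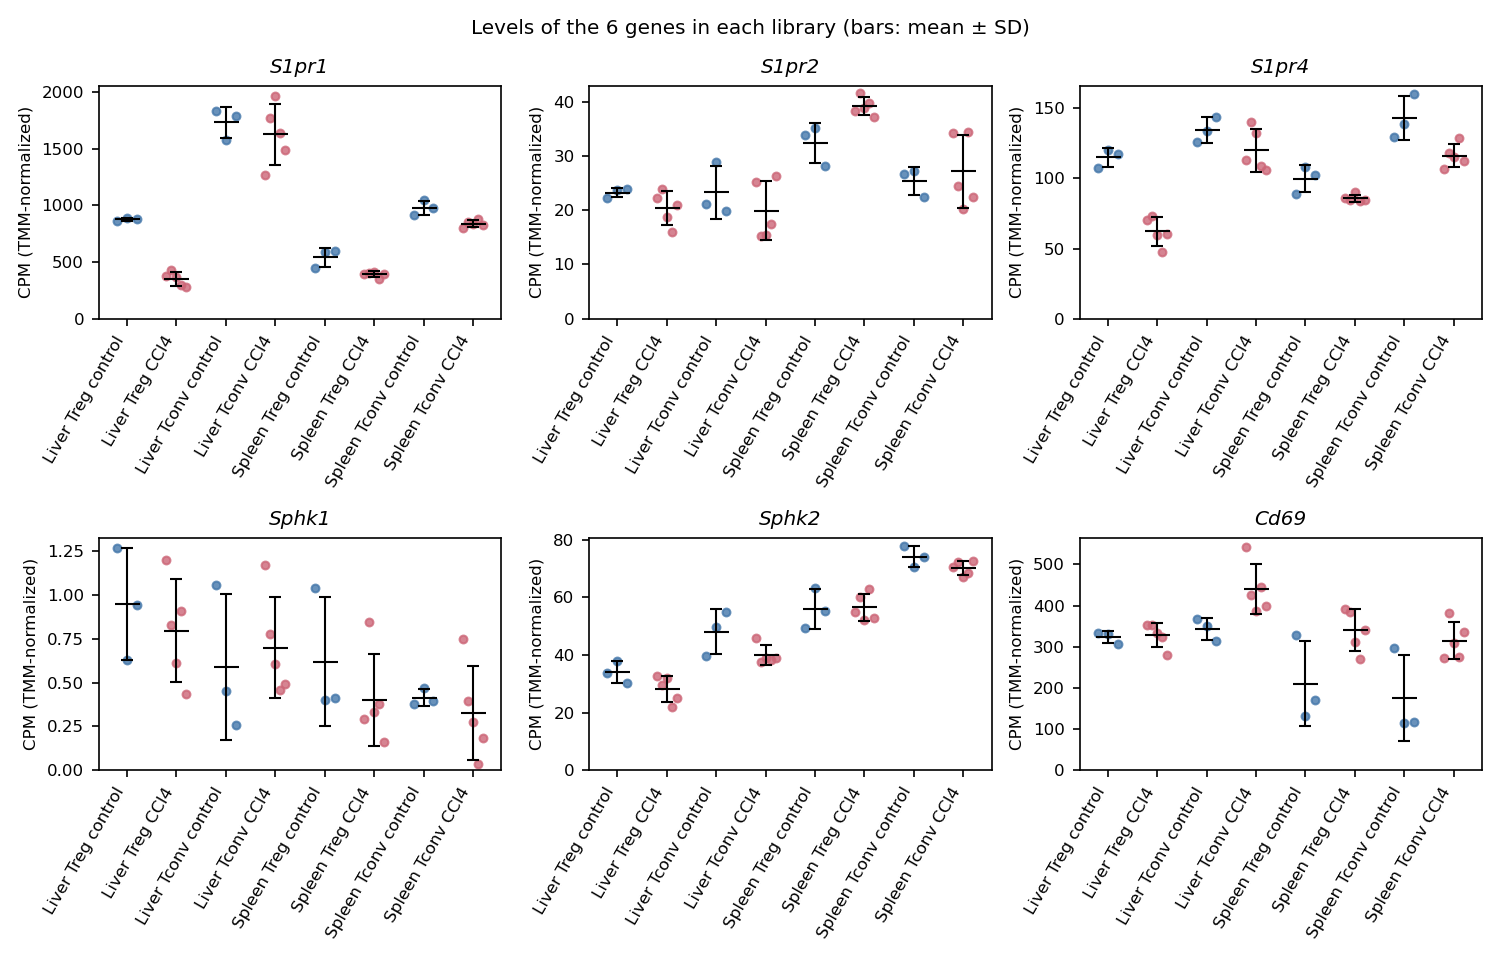
Level in CPM (y axis) of each of the 6 genes in every library of the 8 groups, with group means and standard deviations; each panel is 1 gene. S1pr1 in liver Treg sits at 862 to 888 CPM in controls and at 284 to 433 CPM after CCl4, while the Cd69 panel shows 2 low controls in each spleen population.

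Tconv carried more S1pr1 than Treg in both organs. Averaged over treatments, S1pr1 was lower in Treg by 1.60 on the log2 scale in liver (log2 difference -1.60, SE 0.09, adjusted p = 1.812e-15) and by 0.97 in spleen (-0.97, SE 0.08, adjusted p = 1.001e-10), with no overlap between the cell types within either treatment. In the liver this gap was -0.98 in controls and -2.21 after CCl4. S1pr4 was lower in Treg by a log2 difference of -0.59 in liver (adjusted p = 1.522e-07) and -0.48 in spleen (adjusted p = 6.533e-06). The liver value was larger after CCl4 (-0.95) than in controls alone, where -0.23 was not called (adjusted p = 0.1453, edgeR). Every liver Treg library still lay below every liver Tconv library of its treatment. S1pr2 was called higher in Treg in spleen: the log2 difference was 0.44 there (SE 0.13, adjusted p = 0.00647) and 0.01 in liver (adjusted p = 0.9407). The gap between these values was not called (adjusted p = 0.1011). Of the 10 alternatives other than leaving out a single library, 2 lost the spleen call, and the 10 gave 0.347 to 0.5283. Without spleen controls 2 and 3 the spleen value was 0.44 and the call was lost (adjusted p = 0.1175).

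Of the 6 genes, 3 were called between Treg and Tconv in liver, where 51.8% of all genes were called, and 4 in spleen, where 39.7% were. The liver count is close to its background, and the spleen count is above it on 6 genes. Libraries did not overlap within either treatment for the same 3 in liver and the same 4 in spleen, as for 23.5% and 19.6% of all genes. The B cell list was higher in Treg than in Tconv as well, at 1789 to 2357 against 474 to 544 CPM in liver controls, nearly all of it Ighm (1970 ± 319 CPM in liver Treg controls), with Ms4a1 at 1.34 CPM. Its part in the differences between cell types was not tested.

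Between the organs, S1pr2 was lower and S1pr1 higher in liver Treg on average over treatments. S1pr2 was lower in liver than in spleen Treg, with a log2 difference of -0.71 (SE 0.13, adjusted p = 2.35e-05) and no overlap within either treatment; the controls alone gave -0.48 (adjusted p = 0.0577) and the treated libraries -0.94. S1pr1 was higher in liver Treg by 0.27 (SE 0.08, adjusted p = 0.00764), and by 0.41 without spleen controls 2 and 3, but this average joins opposite signs. Among controls it was 0.69 higher in liver (adjusted p = 0.0001228), and after CCl4 it was at -0.16 (adjusted p = 0.1925). In Tconv, S1pr1 was higher in liver by 0.89 (SE 0.08, adjusted p = 5.411e-10), with no overlap. The organ difference was smaller in Treg than in Tconv by -0.62 (SE 0.12, adjusted p = 0.000298, edgeR), the only 1 of the 6 called in this test, where 19.4% of all genes were called and 12.4% were lower in Treg. By treatment it differed by -0.13 among controls (adjusted p = 0.7723) and by -1.12 after CCl4 (adjusted p = 2.331e-06).

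S1pr4 was not called between the organs in the averaged test, with -0.13 in Treg (adjusted p = 0.1409) and -0.02 in Tconv (adjusted p = 0.8464). After CCl4 alone it was lower in liver than in spleen Treg by a log2 difference of -0.46 (adjusted p = 0.0001313), while controls alone gave 0.20 (adjusted p = 0.1751). S1pr2 in Tconv was at -0.29 (adjusted p = 0.0586) between liver and spleen, a value that passed the threshold when any 1 of 6 libraries was left out (liver control 2, liver CCl4 1 or 5, spleen control 3, spleen CCl4 3 or 5, adjusted p from 0.0173 to 0.0444). In all, 3 of the 6 genes were called between the organs in Treg, where 60.6% of all genes were called, and 3 in Tconv, where 55% were, so neither count stands above its background. Libraries were apart within both treatments for 2 of the 6 in Treg, S1pr2 and Sphk2 (29.1% of all genes), and for 3 in Tconv, S1pr1, Sphk2 and Cd69 (25.7%).

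**Figure D3:**
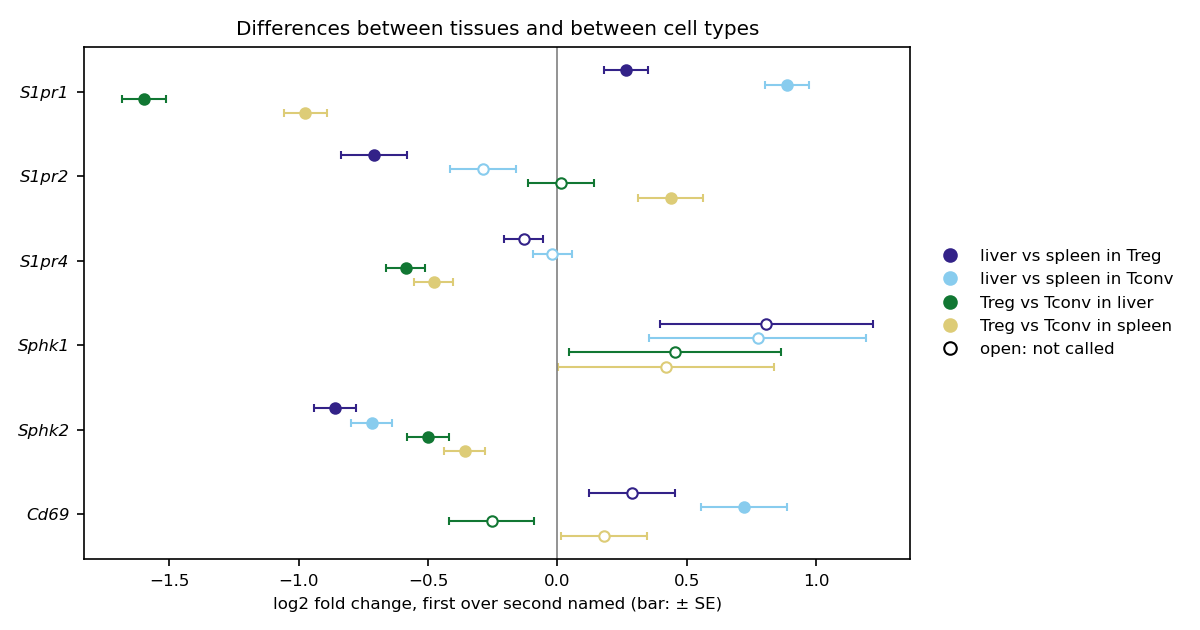
Log2 difference (x axis) of each of the 6 genes for liver against spleen and for Treg against Tconv, averaged over treatments, with bars of 1 standard error; filled points passed an adjusted p of 0.05. S1pr1 in Treg against Tconv reaches -1.60 in liver, and Sphk2 lies at -0.86 and -0.72 for liver against spleen.

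Levels per length, in TPM (a library's transcripts scaled to a fixed total after division by length), allow the receptors to be ranked. S1pr1 was the most abundant receptor in each group, with mean TPM from 189 in liver Treg after CCl4 to 796 in liver Tconv controls. S1pr4 ran from 43.8 to 92.1 TPM and S1pr2 from 5.39 to 10.02 TPM. In the order of S1pr1 levels, liver Tconv controls (796 ± 73.0 TPM) and liver Tconv after CCl4 (753 ± 119 TPM) overlapped, and both lay above all other groups. Next came spleen Tconv controls (480 ± 54.2), liver Treg controls (457 ± 27.9) and spleen Tconv after CCl4 (399 ± 30.01), each overlapping its neighbour, then spleen Treg controls (283 ± 56.3). Spleen Treg and liver Treg after CCl4, at 200 ± 13.4 and 189 ± 32.6 TPM, were lowest and overlapped.

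The remaining S1P receptor genes were nearly silent. S1pr3 averaged at most 0.801 CPM in any group. S1pr5, a receptor best known from natural killer cells, averaged 2.84 CPM in liver Tconv controls and 0.224 CPM in liver Treg controls. It was called lower in Treg in both organs, with log2 differences of -3.90 in liver and -3.43 in spleen, at levels where a fold change rests on few counts.

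Sphk1, on the plus strand at chr11:116530925-116536674, was close to absent. Its group means lay between 0.327 and 0.945 CPM, and the retained-intron transcript Sphk1-208 took 80.9% to 100% of its TPM on average in each group. The antisense gene Gm29292 overlaps it, and without a stated strand setting their reads cannot be told apart. No comparison of Sphk1 was called. Its value of 0.81 for liver against spleen in Treg (SE 0.41, adjusted p = 0.0908) passed the threshold when spleen control 1 (adjusted p = 0.0383) or spleen CCl4 2 (adjusted p = 0.0311) was left out, with limma-voom (0.96, adjusted p = 0.01839) and with the replicate block (0.87, adjusted p = 0.03608). That of 0.77 in Tconv (adjusted p = 0.119) passed it when spleen CCl4 1 was left out (adjusted p = 0.0321).

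Sphk2, on the minus strand at chr7:45709467-45718002, was the kinase gene these cells expressed, and both cell types had less of it in liver. Treg had 33.8, 37.9 and 30.2 CPM in liver controls and 49.2, 63.2 and 55.3 CPM in spleen controls. After CCl4 Treg had 32.6, 29.6, 32.1, 22.0 and 25.1 CPM in liver and 55.0, 59.9, 52.1, 62.8 and 53.0 CPM in spleen. No liver library reached the lowest spleen library of its treatment, and the log2 difference was -0.86 (SE 0.08, adjusted p = 3.6e-10, edgeR). Marker sums differed between the organs as well: in Treg controls the hepatocyte list stood at 31.4 to 60.03 CPM in liver and 0.534 to 0.963 CPM in spleen and the dendritic list at 18.7 to 25.1 and 2.59 to 4.66 CPM, and in Tconv controls the B cell list stood at 474 to 544 and 902 to 989 CPM. Their part in the differences between organs was not tested.

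Tconv repeated this at higher levels. Controls had 39.6, 49.6 and 55.0 CPM in liver and 77.9, 70.5 and 73.8 CPM in spleen, and treated libraries 45.9, 37.5, 38.8, 38.3 and 39.0 CPM in liver and 70.5, 72.3, 67.1, 68.5 and 72.5 CPM in spleen. The log2 difference between liver and spleen was -0.72 (SE 0.08, adjusted p = 1.207e-08), and the difference between the 2 cell types, -0.14, was not called (adjusted p = 0.4348). Treg had less Sphk2 than Tconv, with log2 differences of -0.50 in liver (adjusted p = 5.776e-06) and -0.36 in spleen (adjusted p = 0.000552). CCl4 gave no called change in any population: liver Treg and liver Tconv were both at -0.27 (adjusted p = 0.1194 and 0.2964).

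The transcripts of Sphk2 begin at separate places, and by estimate the part that starts inside the gene carried more of the difference between organs. Sphk2-201 starts at position 45715207 of chromosome 7, next to the window shown above, and Sphk2-202 and Sphk2-203 start upstream at 45718002 and 45717902. The internal start had 6.28 TPM in liver and 14.4 TPM in spleen Treg controls, a ratio of 0.437, and the upstream starts 11.98 and 15.1 TPM, a ratio of 0.791. The liver-to-spleen ratios of the internal start were 0.41 in Treg after CCl4, 0.44 in Tconv controls and 0.493 in Tconv after CCl4, and those of the upstream starts 0.593, 0.839 and 0.619.

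As a share of Sphk2 TPM, the internal start made up 31.6% to 37.5% in liver Treg controls and 44.6% to 52.2% in spleen Treg controls. After CCl4 the Treg ranges, 27.9% to 50.9% and 38.0% to 48.5%, overlapped. Tconv ranges were 32.2% to 43.2% in liver against 50.8% to 57.5% in spleen for controls, and 40.1% to 49.6% against 51.2% to 56.2% after CCl4. In liver Treg after CCl4, replicate 2 had 50.9% and the other libraries 27.9% to 37.5%. The kallisto program divides reads between overlapping transcripts by estimate, so these values are not a direct measure of start use. This split was looked at after the values were seen and is given without a test. Genes on the opposite strand overlap Sphk2: Sphk2-202 shares 539 exon bases with Dbp and 373 with Rpl18, Sphk2-203 shares 202 with Rpl18, and Sphk2-201 shares 0 with either. Dbp averaged 7.66 to 10.2 CPM in the liver groups and 16.6 to 27.8 CPM in the spleen groups, Rpl18 209 to 436 and 334 to 484 CPM, and their part in the upstream values was not tested.

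**Figure D4:**
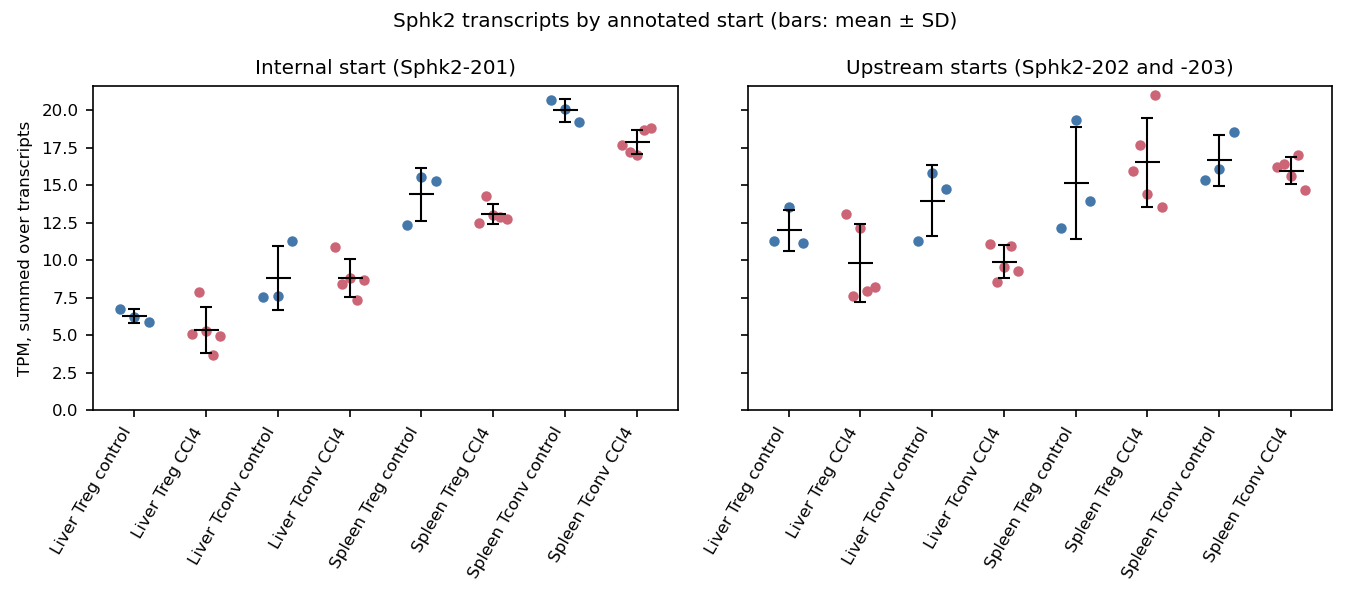
TPM of Sphk2 transcripts from the internal start and from the upstream starts (y axis) in every library of the 8 groups. The internal start lies at 3.69 to 11.2 TPM in the liver libraries and at 12.3 to 20.7 TPM in the spleen libraries, while the upstream starts run from 7.60 to 15.8 TPM in liver and from 12.2 to 21.0 TPM in spleen.

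Cd69, on the minus strand at chr6:129267325-129275436, was abundant in all groups and did not follow S1pr1. In liver Treg, controls had 333, 331 and 307 CPM and treated libraries 353, 352, 334, 325 and 281 CPM. These overlap, and the log2 difference was 0.02 (SE 0.23, adjusted p = 0.9748), in the population where S1pr1 fell by 1.32. In liver Tconv, controls had 367, 350 and 315 CPM and treated libraries 542, 426, 388, 445 and 400 CPM. The treated libraries were all above the controls, and 6.65% of genes tested had groups apart in this comparison. The difference of 0.36 (SE 0.24) missed the threshold (adjusted p = 0.556). Beside it, the 8 NKT-like markers summed to 97.2 to 227 CPM in liver Tconv controls and 31.9 to 128 CPM after CCl4, with overlap. Zbtb16, a factor of natural killer T cells and a minor part of that sum, had 15.1 to 36.3 and 2.36 to 6.96 CPM. The 5 NK markers went the other way, with sums of 9.01 to 15.5 CPM in controls and 15.4 to 47.5 CPM after CCl4. Their part in the Cd69 values was not tested.

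In the spleen, Cd69 followed the libraries low in Fos. Treg controls had 328, 132 and 171 CPM and treated libraries 391, 385, 311, 271 and 340 CPM. Tconv controls had 296, 115 and 118 CPM and treated libraries 274, 382, 309, 275 and 335 CPM. Control 1 lies within the range of the treated libraries in both cell types, and only controls 2 and 3 lie below. The log2 difference in Treg was 0.69 (SE 0.24) and missed the threshold (adjusted p = 0.1704), as did the 0.84 of Tconv (SE 0.24, adjusted p = 0.0773). The call depends on the method: limma-voom called Cd69 in both (adjusted p = 0.04426 and 0.03197), and DESeq2 (adjusted p = 0.03212) and the replicate block (adjusted p = 0.02175) called it in Tconv. Without controls 2 and 3 they were 0.05 (adjusted p = 0.9907) and 0.08 (adjusted p = 1). Without control 1 they were 1.17 (adjusted p = 0.00686) and 1.44 (adjusted p = 0.0001498).

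**Figure D5:**
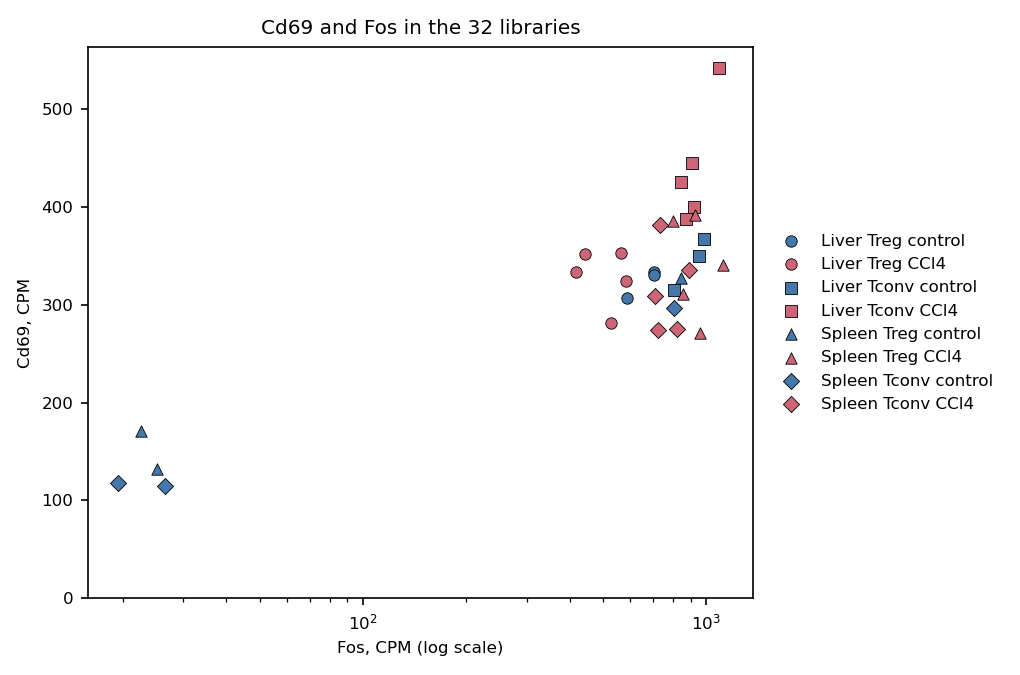
Cd69 in CPM (y axis) against Fos in CPM (x axis, log scale) for the 32 libraries, with 1 point per library marked by group. The 4 spleen controls low in Fos, at 19.4 to 26.4 CPM, have 115 to 171 CPM of Cd69, and the other 28 libraries have at least 418 CPM of Fos and 271 CPM of Cd69.

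Liver Tconv had more Cd69 than spleen Tconv, by a log2 difference of 0.72 (SE 0.17, adjusted p = 0.00052). Without spleen controls 2 and 3 it was 0.34 (adjusted p = 0.0158), and after CCl4 alone 0.48 (adjusted p = 0.0501). In Treg the difference of 0.29 was not called (adjusted p = 0.1331), and it was -0.03 without those controls and 0.52 (adjusted p = 0.00532) without spleen control 1. By treatment it was 0.62 in controls and -0.05 after CCl4. Of the 10 alternatives other than leaving out a single library, 2 called it. The test called no difference between Treg and Tconv in liver (-0.25, adjusted p = 0.2035) or in spleen (0.18, adjusted p = 0.4223), the latter being 0.48 (adjusted p = 0.00643) without spleen Tconv control 1. In liver it was -0.24 and called when those libraries were fitted alone (adjusted p = 0.0119). By treatment the liver difference was -0.09 in controls (adjusted p = 0.8316) and -0.42 after CCl4 (adjusted p = 0.09371), where every Treg library lay below every Tconv library. In order of TPM, liver Tconv after CCl4 was highest at 392 ± 63.5 and spleen Tconv controls lowest at 165 ± 106, and each group overlapped its neighbour.

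The other genes of the pathway were taken as whole lists. Of 22 genes that make, export or degrade S1P and its precursors, 1 rose and 5 fell in liver Treg after CCl4, where 14.9% of all genes were called and 7.34% fell, with a list median of -0.07 on the log2 scale. Ugcg, which makes glucosylceramide, fell by 0.83 (adjusted p = 0.0009602), the S1P phosphatase gene Sgpp1 by 0.45 (adjusted p = 0.001025) and the ceramide synthase gene Cers6 by 0.75 (adjusted p = 0.00235), and the ceramide kinase gene Cerk rose by 0.47 (adjusted p = 0.001967). In liver Tconv, where 0.326% of all genes were called, 1 of the 22 was called, Cerk, which fell by 0.47 (adjusted p = 0.04088). The effects on Cerk in liver Treg and liver Tconv differed by 0.94 (adjusted p = 0.0001498). No gene of this list was called after CCl4 in either spleen population.

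Among 25 genes of receptor coupling and desensitisation, 2 rose and 7 fell in liver Treg, against the same 14.9% and 7.34% of all genes. Grk6, a kinase that phosphorylates activated receptors, fell by 0.48 (adjusted p = 3.41e-06), Ezr, which links membrane proteins to actin, by 0.47 (adjusted p = 2.01e-05), Dock2, which activates Rac in migrating lymphocytes, by 0.45 (adjusted p = 0.0001526) and the inhibitory G protein gene Gnai2 by 0.29 (adjusted p = 0.0004836). After CCl4, 0 of the 25 changed in liver Tconv and 1 rose in each spleen population, in both cases Gna13, by 0.35 in Treg (adjusted p = 0.04026) and 0.37 in Tconv (adjusted p = 0.0337). Of all genes, 1.18% were called in spleen Treg and 1.07% in spleen Tconv. Without spleen controls 2 and 3 Gna13 was at 0.26 (adjusted p = 0.6933) and 0.17 (adjusted p = 1); edgeR then called 0 of all genes in either spleen comparison, with 1322 and 704 at an unadjusted p under 0.05. Between the organs Gna13, the subunit through which S1PR2 acts, was higher in liver by 1.87 in Treg (adjusted p = 6.083e-20) and by 1.69 in Tconv (adjusted p = 5.384e-19), where 6 genes of the list were higher in each cell type and 12 and 13 were lower (60.6% and 55% of all genes were called).

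Of 12 transcription factor genes tied to egress or residency, 3 rose and 5 fell in liver Treg after CCl4 (14.9% of all genes called, 7.34% lower). Those that fell were led by Tcf7 (-1.61, adjusted p = 1.729e-13), Klf3 (-1.33, adjusted p = 2.194e-08), Klf2 (given above) and Bach2 (-1.77, adjusted p = 4.611e-07), which mark resting or central T cells. The 4 had larger falls in liver Treg than in liver Tconv by the test of the difference, Tcf7 by -1.50 (adjusted p = 8.264e-09) and Klf3 by -1.22 (adjusted p = 0.0001527). None of the 12 changed in liver Tconv or spleen Tconv. In spleen Treg, where 1.18% of all genes were called, 2 rose, Bhlhe40 by 1.86 (adjusted p = 0.009566) and Hic1 by 1.02 (adjusted p = 0.04017). Without spleen controls 2 and 3 they were at 1.06 and 0.79, with 1 control left in spleen Treg. Of 10 homing and retention receptor genes, 2 rose in liver Treg, Cxcr6 by 1.84 (adjusted p = 0.0003332) and Cd44 by 0.87 (adjusted p = 0.0002029), and 1, Ccr7, fell, against the same 14.9% of all genes. In liver Tconv, where 0.326% of all genes were called, 1 rose, Gpr183, by 0.38 (adjusted p = 0.04234), and none was called in spleen.

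The 14 immediate early and heat shock genes touch Cd69, itself an early activation gene. In liver Treg 2 fell, Btg2 by 0.45 (adjusted p = 0.01293) and Egr2 by 0.88 (adjusted p = 0.02156), where 14.9% of all genes were called and 7.34% fell. In spleen Treg 3 rose, Atf3 by 2.60 (adjusted p = 0.01422), Jun by 1.27 and Ier2 by 0.97 (adjusted p = 0.04017 for both), with a list median of 1.24. In that comparison 1.18% of all genes were called in either direction. Without spleen controls 2 and 3 none of the 14 was called, the median was 0.33, and Atf3 was at 1.15 (adjusted p = 0.5664), Jun at 0.38 (adjusted p = 0.6335) and Ier2 at 0.25 (adjusted p = 0.7705). Between liver and spleen 9 were higher and 2 lower in Treg, and 11 were higher and 0 lower in Tconv, led by Hspa1a at 6.98 (adjusted p = 2.026e-14) in Treg and 6.84 (adjusted p = 3.067e-14) in Tconv; 60.6% and 55% of all genes were called. Without spleen controls 2 and 3 the counts were 8 higher and 4 lower in Treg and 9 and 0 in Tconv, with 42.7% and 41.5% of all genes called, and Hspa1a was at 6.69 and 6.81.

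Between liver and spleen, 7 of the 10 homing and retention genes were higher in liver in each cell type. In Treg 2 were lower and in Tconv 1 was lower, where 60.6% and 55% of all genes were called in either direction. Cxcr4, the receptor for the retention chemokine of marrow and inflamed tissue, was higher by 2.61 in Treg (adjusted p = 4.258e-13) and was called in Tconv too (adjusted p = 1.333e-11), and Cxcr6 was higher by 3.04 (adjusted p = 3.218e-11) and 2.64 (adjusted p = 2.241e-10). Of the transcription factors, 5 were higher and 4 lower in liver Treg and 8 higher and 2 lower in liver Tconv, Klf2 among the latter's higher genes at 1.28 (adjusted p = 1.803e-15). S1P metabolism had 6 higher and 6 lower in Treg and 7 and 4 in Tconv. The median log2 difference of that list in Treg was -0.1188, and it was -0.1065 without spleen controls 2 and 3.

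Between the cell types, 8 of the 12 transcription factor genes were lower in Treg and 3 higher in liver, and 6 were lower and 3 higher in spleen, where 51.8% and 39.7% of all genes were called. Tcf7 was lower by a log2 difference of -3.59 in liver (adjusted p = 1.465e-25) and -2.28 in spleen (adjusted p = 1.886e-21), and Klf2 by -1.41 (adjusted p = 1.13e-16) and -0.70 (adjusted p = 5.578e-10). In the coupling list 7 genes were higher and 13 lower in liver and 7 and 11 in spleen, in the homing list 3 and 5, and 4 and 4, and in the metabolism list 9 and 6, and 8 and 3. The median log2 difference of the coupling list in spleen was -0.0779, and it was -0.0689 without spleen controls 2 and 3. Itgae, the integrin chain that holds cells in epithelium, was higher in Treg by 4.59 in liver (adjusted p = 2.632e-16) and 5.65 in spleen (adjusted p = 2.437e-17). Cerk was higher in Treg by 1.56 in liver (adjusted p = 1.151e-16) and 1.08 in spleen (adjusted p = 5.542e-13).

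The genes whose log2 CPM ran most like each member over the 32 libraries, among 9263 compared, are given as a description, since libraries of a group share tissue, cell type and treatment. For S1pr1 they were Trib2 (Pearson r 0.967), Gypc (0.953), Crlf3 (0.952), Ccr7 (0.951) and Tle4 (0.950). For S1pr4 they were Pecam1 (0.939), St8sia6 (0.936), Foxp1 (0.930), Rab3ip (0.929) and Ripor2 (0.924), and for S1pr2 Ppp1r9b (0.834), Myo18a (0.828), Tap1 (0.825), Triobp (0.823) and Cxcr5 (0.821). Sphk2 ran with Scamp4 (0.958), Selenoo (0.951), Gfer (0.950), Mbd3 (0.950) and Frmd8 (0.948). Cd69 ran with Csrnp1 (0.921), Pcnp (0.915), Junb (0.912), Bambi (0.910) and Fosb (0.908), of which Junb and Fosb are immediate early genes. Between members the highest value was that of S1pr1 and S1pr4, 0.839.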

How the data were processed

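RNA of sorted cells was made into cDNA with the Clontech Ultra Low v4 kit and into libraries with NexteraXT, per the labels' protocols. Per the submitters' processing notes, bcl2fastq 2.19, kallisto 0.44.0, the build GRCm38.p6 and DESeq2 were used; of the annotation release and the strand setting nothing is given in the sources used here. The deposited tables list 118489 transcripts, and per the file headers each has an estimated count and a TPM, which the authors scaled by effective length.

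Estimated counts and TPM were summed per gene with GENCODE M21 names (98.51% of transcripts matched; the 1761 others held 0.684% to 0.823% of counts). Sums were rounded and tested in edgeR 4.0.16 (R 4.3.3), with 1 quasi-likelihood fit of the 8 groups, filterByExpr, TMM factors of 0.9225 to 1.065 and 24 residual degrees of freedom, over 17159 genes. A gene is called at a Benjamini-Hochberg adjusted p under 0.05. A standard error is the log2 fold change over the square root of F. Counts for the liver Treg comparison over 17159 genes were simulated from the model and spread that the test itself fits. Of these, 98% of 4-fold and 88% to 90% of 2-fold changes were called, and 0.0767% of unchanged genes. Each effect was given to 50 genes, all with a mean of at least 5 CPM. The rates do not cover scarcer genes such as Sphk1 and do not measure errors in the real libraries. Tissue contrasts were averaged over treatments. Alternatives were DESeq2 1.42.0 and its size factors, limma-voom (limma 3.58.1), no filter, length offsets, a replicate block, separate fits, each treatment alone, and leaving out single libraries or spleen controls 2 and 3.

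The members and lists were chosen with earlier results of these data known. The members are named throughout, with at most 4 called genes of smallest adjusted p per list and the 5 genes of highest correlation per member of at least 5 CPM. Counts rest on reads without molecular identifiers, so depth bounds only the counting error. Figures were drawn with matplotlib 3.10.9 in Python 3.11.15.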

Additional observations from a re-analysis of the deposited data

Results flagged for a closer look

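Among 24 groups of 5 libraries examined for a library far from the rest, 1 was found, where chance marks about 1 in 20: liver Tconv after CCl4, in which replicate 1 had 45.9 CPM of Sphk2 and the other libraries 37.5 to 39.0 CPM. The CCl4 effect on S1pr1 differed between groups by the test of the difference, by -1.23 on the log2 scale for liver Treg against liver Tconv and by -0.85 for liver Treg against spleen Treg. That on S1pr4 differed by -0.72 and -0.67 in the same pairs. The difference of S1pr1 between liver and spleen was also smaller in Treg than in Tconv, by -0.62.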

How the results depend on the processing

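The falls of S1pr1 and S1pr4 in liver Treg kept their call under each alternative run, with log2 fold changes of -1.41 to -1.25 and -0.95 to -0.80 when 1 library was left out. Over all settings, the values of single members gave 1678 results with the same direction and side of the threshold, 31 that came to pass it, 17 that no longer did and 80 that changed sign; the cause was not tested. Whether sample numbers pair the libraries is not stated. Same-numbered libraries had a median correlation of 0.11 in controls (10 of 18 pairs over 0.1) and 0.115 after CCl4 (19 of 30), against -0.05 (2 of 36) and -0.031 (11 of 120) for libraries of different numbers. Of 32 libraries, 27 were closest to their own number, out of 3 numbers in controls and 5 after CCl4. This is a hint that numbers mark a shared origin. Not every pair passed 0.1, and the labels do not say what a number marks. The main tests thus use no pairing and ignore any that exists. With the replicate block the number of members called was 0 in spleen Treg (1 without it), 1 in spleen Tconv (0) and 5 for liver against spleen Treg (3).

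In spleen Treg after CCl4 the count was 0 without a filter, with length offsets and without spleen controls 2 and 3, 2 with limma-voom, and 0 to 2 when 1 library was left out. In spleen Tconv it was 1 with DESeq2 and limma-voom and 0 to 1 with 1 library left out. Liver against spleen in Treg gave 5 with limma-voom and 3 to 5. The organ difference between Treg and Tconv (1) gave 2 with length offsets, 0 in controls, 2 after CCl4 and 1 to 2; the CCl4 effect of liver against spleen Tconv (0) gave 0 to 1.

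No value that changed sign was called after the change, and S1pr1 for liver against spleen in Treg (-0.16 after CCl4 alone) was the only one called before it. For the same contrast S1pr4 was 0.20 in controls and Cd69 -0.0345 without spleen controls 2 and 3 and -0.047 after CCl4. S1pr4 between organs in Tconv was 0.0282 with DESeq2 size factors, 0.0283 with DESeq2, 0.0046 fitted alone, 0.0461 without spleen controls 2 and 3 and 0.0464 after CCl4; left-out libraries gave -0.057 to 0.0213. Its organ difference between cell types was 0.29 in controls. Sphk2 in the effect of liver Treg against liver Tconv was -0.0162 and -0.0154 with DESeq2 size factors and DESeq2, -0.0028 with the replicate block and -0.0039 fitted alone (-0.10 to 0.13 with libraries left out). S1pr2 between cell types in liver was -0.0526 with length offsets and -0.0057 in controls (-0.041 to 0.1068), and its effect difference in liver -0.16 with length offsets (-0.15 to 0.16). Without spleen controls 2 and 3 the effect difference of liver against spleen Tconv was -0.0024 for S1pr4 and 0.28 for Cd69. Sphk1 gave 0.0839 in liver Treg and 0.001 for spleen Treg against Tconv with the block, 0.039 for the latter with limma-voom, and -0.40 (without spleen controls 2 and 3) and -0.0788 (after CCl4) for the organ difference. With 1 library left out, ranges crossing 0 were -0.0144 to 0.075 for Cd69 in liver Treg and -0.057 to 0.4805 for Cd69 between cell types in spleen. In the effect of spleen Treg against spleen Tconv they were -0.7442 to 0.3312 for Cd69, -0.0085 to 0.1483 for S1pr4 and -0.7445 to 0.2854 for Sphk1. After CCl4 they were -0.0681 to 0.1137 for Sphk2 in spleen Treg and -0.0052 to 0.1832 for S1pr2 in spleen Tconv. For Sphk1 they were -0.4673 to 0.0284 in liver Treg and -0.0808 to 0.9728 in liver Tconv. Sphk1 also had -0.2083 to 0.8212 for the CCl4 effect of liver Treg against that of spleen Treg, and -0.236 to 0.3768 for its organ difference between cell types. The list counts without spleen controls 2 and 3 were chosen after seeing the data. Sphk1, under 1 CPM in group mean, is at the limit of depth here.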
